A study of Homo sapiens with 12 samples.

Results

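Genes of the cell cycle and of DNA replication were followed in MDA-MB-231 cells, a human triple-negative breast cancer line, with or without an intact phosphorylation site at Ser134 of the glucocorticoid receptor (GR). The 41 genes were chosen by symbol, among 19907 symbols in all, and none was chosen by its measured level. All 41 were present in each of the 12 libraries and all 41 passed the filter on low counts, as did 18579 symbols in all. Of the 41 genes, 21 act mainly at entry into S phase and in DNA synthesis (G1/S genes) and 20 in G2 and mitosis (G2/M genes).

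RNA was sequenced from 4 groups with 3 replicates each. The wt-GR groups were a clone that went through the same CRISPR procedure and kept wild-type GR, given for 6 h either vehicle or TGFβ1 at 10 ng/mL. The S134A-GR groups were 1 CRISPR clone in which both GR alleles encode alanine in place of Ser134, given vehicle or the same TGFβ1 dose and time. All 4 groups were starved for 18 h in medium with 1% charcoal-stripped serum, without added glucocorticoid. Each line is 1 clone, so the edit and the history of a clone cannot be told apart, and nothing in the sources says that replicates came from separate cultures, so that p-values measure only the spread between these samples.

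A cell commits to division when cyclin and cyclin-dependent kinase complexes release the E2F transcription factors from the retinoblastoma protein, which switches on genes for nucleotide supply and for the machinery that loads and fires replication origins. Genes needed in mitosis come on later, through FOXM1 and B-MYB. Many of their promoters hold boxes with the letters CCAAT and a short element called the cell cycle homology region (CHR). TGFβ is known as a growth-arrest signal in epithelial cells, and many carcinoma lines have lost much of that response. In bulk RNA, fewer cells in a phase and less RNA per cell cannot be told apart.

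Reads assigned to genes, as recovered from the deposited values, ran from 56362036 to 129832227 per library. All these totals lie above the average number of reads per sample that the paper states, and the reason was not tested. Values below are read counts divided by the library's size factor (normalized read counts), and a group is given as mean ± SD (n = 3). A difference is a log2 fold change with its SE, on the scale log2(normalized count + 1), from a single limma fit over the 12 libraries, and a gene was called when its Benjamini-Hochberg adjusted p over the 18579 genes was under 0.05. The 41 genes lay between 633 and 70659 normalized counts in every library, and 3 reads corresponded to at most 4.89 normalized counts, so that no member came near the counting floor. VIM and CD44, markers of this mesenchymal-like line, lay at 41033 normalized counts or above in all 12 libraries, while ESR1, CDH1 and PTPRC (estrogen receptor, epithelial and leukocyte markers) lay at 12.5 or lower. Of the other markers looked at, the epithelial EPCAM lay between 318 and 1093 and the endothelial PECAM1 between 746 and 1454, and their part in the results was not tested.

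Promoters are shown for 6 members on which the comparisons below turn, the 250 bases before a RefSeq transcription start (build GRCh38.p14), written on the gene's strand. Capitals mark 3 kinds of word, searched on both strands: the E2F words TTTCCCGC, TTTCGCGC, TTTGCCGC and TTTGGCGC, the CHR words TTTGAA and TTTAAA, and CCAAT. RRM2 (chr2:10122489-10122738, plus strand), the small subunit of ribonucleotide reductase, has 2 listed starts, and the window before the downstream one is printed. MCM6 (chr2:135876444-135876693, minus strand) encodes a subunit of the replicative helicase and GINS2 (chr16:85688955-85689204, minus strand) a subunit of the GINS complex that activates that helicase. E2F1 (chr20:33686386-33686635, minus strand) and E2F2 (chr1:23531234-23531483, minus strand) encode activating E2F factors, and KIF20A (chr5:138178862-138179111, plus strand) a mitotic kinesin.
RRM2: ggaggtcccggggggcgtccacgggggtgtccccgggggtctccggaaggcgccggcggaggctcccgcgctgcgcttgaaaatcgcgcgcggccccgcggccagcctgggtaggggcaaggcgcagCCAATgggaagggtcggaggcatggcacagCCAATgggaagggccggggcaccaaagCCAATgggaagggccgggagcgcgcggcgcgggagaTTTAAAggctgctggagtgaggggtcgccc
MCM6: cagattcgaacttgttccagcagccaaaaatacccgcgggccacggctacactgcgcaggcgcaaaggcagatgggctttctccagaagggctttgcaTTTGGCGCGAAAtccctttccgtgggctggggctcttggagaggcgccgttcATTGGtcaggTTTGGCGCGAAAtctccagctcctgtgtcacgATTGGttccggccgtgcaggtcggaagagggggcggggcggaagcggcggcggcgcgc
GINS2: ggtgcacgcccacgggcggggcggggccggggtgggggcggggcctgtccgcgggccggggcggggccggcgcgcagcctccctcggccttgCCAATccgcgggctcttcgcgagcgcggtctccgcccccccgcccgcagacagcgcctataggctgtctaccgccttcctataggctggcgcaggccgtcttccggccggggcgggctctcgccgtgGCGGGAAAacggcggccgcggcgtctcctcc
E2F1: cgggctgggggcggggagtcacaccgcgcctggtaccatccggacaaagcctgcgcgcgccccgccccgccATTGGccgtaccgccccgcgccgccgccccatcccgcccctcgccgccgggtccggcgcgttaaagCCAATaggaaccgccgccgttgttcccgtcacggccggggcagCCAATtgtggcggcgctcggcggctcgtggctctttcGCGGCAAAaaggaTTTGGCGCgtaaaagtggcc
E2F2: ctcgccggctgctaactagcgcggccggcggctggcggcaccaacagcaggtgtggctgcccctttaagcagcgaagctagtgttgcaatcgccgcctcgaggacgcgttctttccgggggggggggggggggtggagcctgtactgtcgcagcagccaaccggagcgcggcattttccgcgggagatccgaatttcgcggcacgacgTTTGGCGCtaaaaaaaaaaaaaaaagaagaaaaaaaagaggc
KIF20A: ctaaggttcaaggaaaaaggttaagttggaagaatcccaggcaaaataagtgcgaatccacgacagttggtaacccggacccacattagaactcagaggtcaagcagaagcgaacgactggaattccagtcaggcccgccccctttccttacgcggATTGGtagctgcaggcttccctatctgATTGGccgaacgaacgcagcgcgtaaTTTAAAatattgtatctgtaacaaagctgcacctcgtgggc

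The RRM2 window held a CHR word 30 bases and CCAAT words 123, 93 and 66 bases before the start, counted to the first base of each word. In MCM6, a TTTGGCGC and a GCGCGAAA overlapped by 4 bases to give TTTGGCGCGAAA, a stretch that occurred at 152 and again at 90 bases. E2F1 held E2F words at 33 and 20 bases, E2F2 held 1 at 42 bases and GINS2 held 1 at 31 bases. KIF20A held no E2F word, but a CHR word at 41 bases and CCAAT words at 94 and 67 bases. RefSeq windows from 250 bases before to 50 bases after a start were available for 33 of the 41 genes, and 13 of the 33 (39.4%) held an E2F word in at least 1 window, against 3.99% of 27305 symbols with a window and 5.87% of the 12702 of them that were tested here. CHR words were found for 17 of the 33 (51.5%), against 27.9% of all symbols and 23.0% of those tested. CCAAT was found for 26 of the 33 (78.8%), against 39.7% and 42.2%. By phase, 12 of 18 G1/S genes and 1 of 15 G2/M genes held an E2F word, whereas 5 of the 18 and 12 of the 15 held a CHR word. These matches describe the letters in the windows and not the binding of a factor.

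The first comparison asked how the lines differ when Ser134 of GR cannot be phosphorylated. Under vehicle, 8 of the 41 genes were higher and 12 lower in S134A-GR than in wt-GR cells, that is 19.5% and 29.3% of them, where 25.0% of all genes tested were higher and 26.5% lower. Under TGFβ1, 9 genes were higher and 10 lower, or 22.0% and 24.4%, against 23.1% and 25.7% of all genes. The shares over all genes depend on the filter, since the genes tested include symbols with as few as 10 reads in all. With edgeR's filter on low counts, 4596 of 15866 genes were higher and 4865 lower under vehicle, and 4295 and 4729 under TGFβ1. The members' shares were not tested against either set. No member changed by 1 log2 unit or more, and the median log2 fold change over the 41 genes was 0.0018 under vehicle and -0.0017 under TGFβ1, beside 0.02 and 0.01 over all genes. The median size of the difference, whatever its sign, was 0.11 under either treatment, against 0.32 and 0.30 over all genes. Those include genes at far lower counts than any member, and genes matched for level were not compared.

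The comparisons under vehicle and under TGFβ1 use different libraries of the same clones. The share of all genes called in both is not given here, so the overlap below has no background beside it. In both, CCNA2, CCNE1, GINS2, MCM10, E2F1 and AURKB were higher in S134A-GR cells (6 genes), and MCM3, MCM4, MCM5, MCM6, PCNA, RRM2, UHRF1 and BUB1 were lower (8 genes), and no gene was called in opposite directions. Of the 21 G1/S genes, 5 were higher and 10 lower under vehicle (23.8% and 47.6%), and 6 and 7 under TGFβ1 (28.6% and 33.3%). Of the 20 G2/M genes, 3 were higher and 2 lower under vehicle (15% and 10%), and 3 and 3 under TGFβ1 (15% and 15%). Over all genes the shares were 25.0% and 26.5% under vehicle and 23.1% and 25.7% under TGFβ1. The difference between the phases was not tested.

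**Figure D1:**
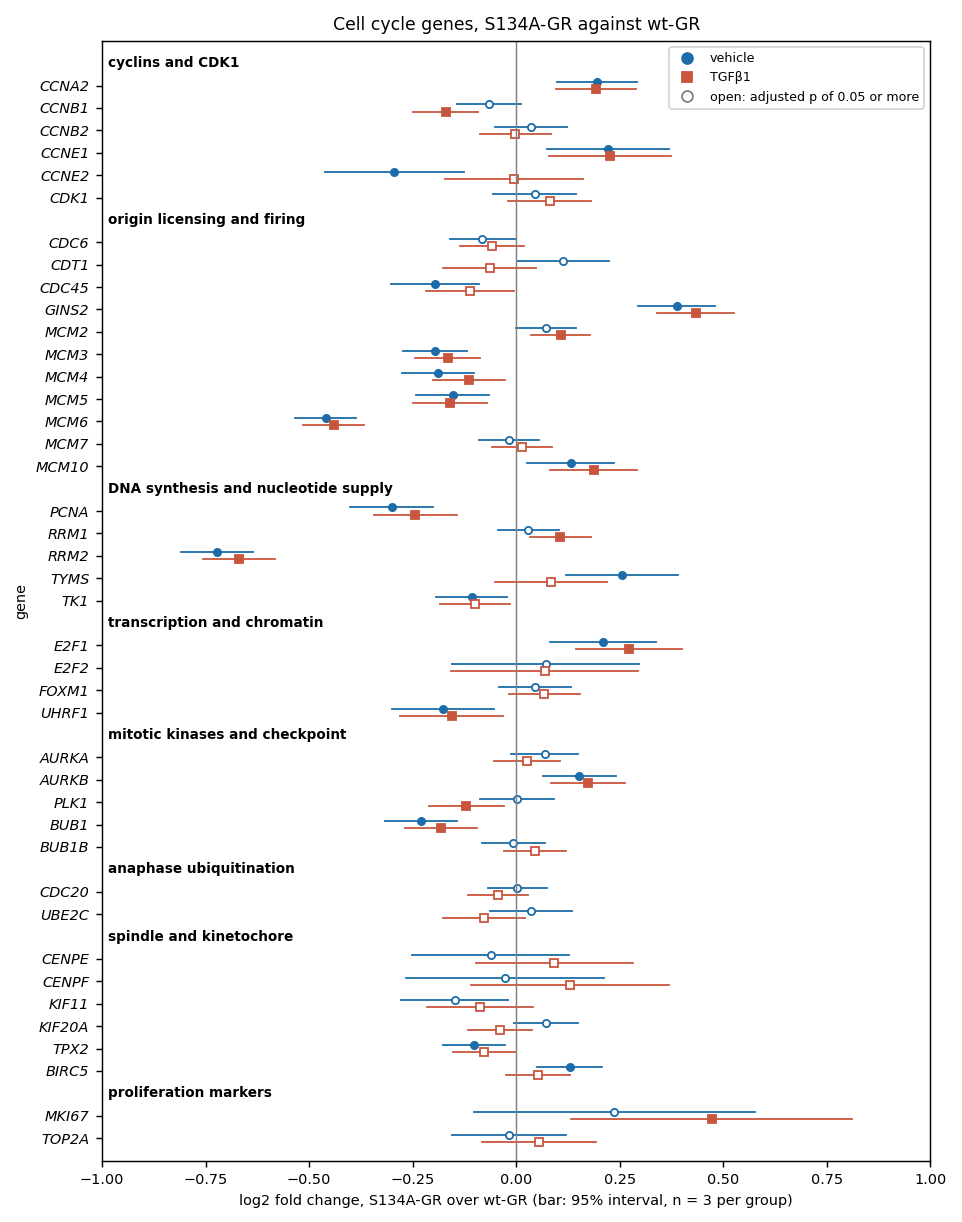
Log2 fold change of each of the 41 genes between S134A-GR and wt-GR cells, grouped by role, under vehicle (blue circles) and TGFβ1 (red squares). Bars are 95% intervals of the limma fit (n = 3 per group), and open symbols did not pass the threshold. RRM2 and MCM6 lie farthest to the left and GINS2 and MKI67 farthest to the right.

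Among genes of DNA synthesis and nucleotide supply, RRM2 differed most of all members. It had 26069, 25204 and 25857 normalized counts in the wt-GR vehicle libraries and 15529, 15764 and 15458 in the S134A-GR vehicle libraries. Under TGFβ1 it had 25374, 27296 and 26582 in wt-GR and 16843, 15634 and 17386 in S134A-GR libraries. Every S134A-GR library lay below every wt-GR library, with a level that was 0.606 times the wt-GR level under vehicle and 0.629 times it under TGFβ1. The log2 fold changes were -0.72 ± 0.04 and -0.67 ± 0.04 (SE, adjusted p = 4.54e-09 and 1.06e-08). RRM1, the large subunit that works with RRM2 in the same enzyme, was at 17772 ± 480.5 and 18134 ± 282 under vehicle, with a log2 fold change of 0.03 (95% interval -0.04 to 0.10). Under TGFβ1 RRM1 was higher by 0.11 (adjusted p = 0.0185), a call that was lost without wt-GR TGFβ1 replicate 1 or 3 or S134A-GR TGFβ1 replicate 1 (0.09 to 0.10, adjusted p = 0.0571 to 0.0775). Per kilobase of transcript, RRM2 stood at 7891 and RRM1 at 5656 normalized counts in wt-GR vehicle cells, and at 4783 and 5771 in S134A-GR vehicle cells. Per length, RRM2 stood above RRM1 in wt-GR cells and below it in the edited line.

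PCNA, the sliding clamp of the replicative polymerases, had 8364, 8997 and 9465 normalized counts in wt-GR and 7243, 7044 and 7467 in S134A-GR vehicle libraries. Under TGFβ1 it had 7799.8, 8204 and 8058 in wt-GR and 6826, 6483 and 7022 in S134A-GR libraries. The S134A-GR libraries were again all lower, with log2 fold changes of -0.30 ± 0.05 and -0.24 ± 0.05 (SE, adjusted p = 8.92e-05 and 0.0006). TYMS, which makes thymidylate, moved the other way: its vehicle libraries were at 6358, 7210.0 and 7521 in wt-GR and 8568, 8357 and 8189 in S134A-GR cells (0.26 ± 0.06, adjusted p = 0.00346). Under TGFβ1 TYMS was at 7289, 7188 and 7282 in wt-GR and 7308, 7325 and 8498 in S134A-GR libraries, with a log2 fold change of 0.08 (adjusted p = 0.295). Exons of TYMS share 967 bases with ENOSF1 on the opposite strand, and whether counting used strand is not given in the sources used here, so the TYMS value is uncertain. TK1, the thymidine salvage kinase, had 25391, 24904 and 26842 in wt-GR and 24048, 23932 and 23570.0 in S134A-GR vehicle libraries, a difference of -0.11 ± 0.04 (adjusted p = 0.0347), and 24808, 23869 and 26482 in wt-GR and 23159, 23715 and 23212 in S134A-GR libraries under TGFβ1 (-0.10, adjusted p = 0.0513). These TK1 values lay at the threshold: the call under vehicle was lost without wt-GR vehicle replicate 3 or any 1 of the S134A-GR vehicle libraries (adjusted p = 0.0625 to 0.126), and the difference under TGFβ1 was called without wt-GR vehicle replicate 3 or wt-GR TGFβ1 replicate 2 (adjusted p = 0.017 to 0.0309). TK1 under TGFβ1 was also called by edgeR (adjusted p = 0.0339), by DESeq2 (0.0333), with edgeR's filter on low counts (0.0445) and with TMM scaling (0.033).

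Genes that license and fire origins were called in both directions. MCM2 to MCM7 form the hexameric helicase, and its 6 genes did not move together. MCM6 was at 11013, 10859 and 11013 in wt-GR and 7860.0, 7951 and 8099 in S134A-GR vehicle libraries, and at 10078, 10648 and 10108 in wt-GR and 7524, 7388 and 7806 in S134A-GR libraries under TGFβ1, so that the lines did not overlap. Its log2 fold changes were -0.46 ± 0.03 and -0.44 ± 0.03 (SE, adjusted p = 7.33e-08 and 1.2e-07). MCM3, MCM4 and MCM5 were also lower, with log2 fold changes of -0.20, -0.19 and -0.15 under vehicle and -0.16, -0.11 and -0.16 under TGFβ1. The MCM4 call under TGFβ1 was lost without wt-GR TGFβ1 replicate 2 or 3 or S134A-GR TGFβ1 replicate 2 (-0.11 to -0.07, adjusted p = 0.0752 to 0.166), and with only the groups compared in the fit (adjusted p = 0.0532). MCM7 was at 31143 ± 588 and 30786 ± 500.0 under vehicle, with intervals of the log2 fold change of -0.09 to 0.06 under vehicle and -0.06 to 0.09 under TGFβ1. MCM2 had log2 fold changes of 0.07 (adjusted p = 0.0856) and 0.11 (adjusted p = 0.0165), and the latter call was lost without wt-GR TGFβ1 replicate 1 or 2 or S134A-GR TGFβ1 replicate 3 (0.08 to 0.10, adjusted p = 0.0583 to 0.0786).

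The helicase becomes active when CDC45 and the GINS complex join it. GINS2 was at 3050.2, 2994 and 3217 normalized counts in wt-GR and 4182, 3904 and 4030.3 in S134A-GR vehicle libraries, and at 2903, 2791 and 2958 in wt-GR and 3912, 3801 and 3968 in S134A-GR libraries under TGFβ1. It had the largest rise of the members under vehicle, 0.39 ± 0.04 and 0.43 ± 0.04 on the log2 scale (SE, adjusted p = 3.8e-06 and 1.45e-06), with no overlap between the lines. CDC45 went the opposite way, from 4758, 4384 and 4903 in wt-GR to 4173, 4019 and 4052 in S134A-GR libraries under vehicle (-0.20 ± 0.05, adjusted p = 0.00407). Under TGFβ1 CDC45 was at 4267, 4316 and 4603 in wt-GR and 3900.3, 4047 and 4263 in S134A-GR libraries (-0.11, adjusted p = 0.0797), a difference that was called without S134A-GR TGFβ1 replicate 3 (-0.145, adjusted p = 0.042). MCM10, a scaffold of the firing origin, was higher by 0.13 and 0.19 (adjusted p = 0.0374 and 0.00574). The first of these calls was lost without wt-GR vehicle replicate 2 or 3 or S134A-GR vehicle replicate 2 or 3 (0.11 to 0.14, adjusted p = 0.0673 to 0.133). CDC6 and CDT1, which load the helicase on DNA, were not called between the lines. Their intervals were -0.16 to -0.0038 and 0.001 to 0.23 under vehicle and -0.14 to 0.02 and -0.18 to 0.05 under TGFβ1. CDT1 under vehicle was called without wt-GR vehicle replicate 3 (0.16, adjusted p = 0.0233).

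Of the cyclins, CCNA2, which acts in S phase and G2, was at 8998, 8749.8 and 8777 in wt-GR and 10283, 9996 and 10104 in S134A-GR vehicle libraries, and at 8925, 9615 and 8862 in wt-GR and 11203, 9997 and 10144 in S134A-GR libraries under TGFβ1. It was higher by 0.20 ± 0.04 and 0.19 ± 0.04 (SE, adjusted p = 0.00207 and 0.00252). CCNE1 and CCNE2 encode the E-type cyclins that drive entry into S phase, and they went in opposite directions under vehicle. CCNE1 had 989, 1033 and 1139 normalized counts in wt-GR and 1286, 1169 and 1230.3 in S134A-GR vehicle libraries (0.22 ± 0.07, adjusted p = 0.0143), and 1182, 1212 and 1214 in wt-GR and 1353, 1343 and 1534 in S134A-GR libraries under TGFβ1 (0.23 ± 0.07, adjusted p = 0.0136). The CCNE1 calls were lost without wt-GR vehicle replicate 1 or S134A-GR vehicle replicate 1 (adjusted p = 0.0599 to 0.0642) and, under TGFβ1, without S134A-GR TGFβ1 replicate 3 (0.16, adjusted p = 0.0736). CCNE2 had 2333, 2401 and 2141 in wt-GR and 1854, 1881 and 1865 in S134A-GR vehicle libraries (-0.29 ± 0.08, adjusted p = 0.0057). Under TGFβ1 CCNE2 was at 1739.7, 2141 and 1971 in wt-GR and 2051, 1741 and 2032 in S134A-GR libraries, and the lines overlapped (-0.01, adjusted p = 0.965). CCNE2 shares 1629 exon bases with INTS8 on the opposite strand and its value is uncertain for the reason given for TYMS. Shorter exon overlaps with another gene were found for MCM7 (277 bases), CCNA2 (254), BUB1B (172), KIF20A (74), PLK1 (58) and GINS2 (7).

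CCNB1, the main mitotic cyclin, was at 21757, 21781 and 22196 in wt-GR and 20701, 21618 and 20498 in S134A-GR vehicle libraries (-0.07, adjusted p = 0.148). Under TGFβ1 it was at 22602, 23041 and 22308 in wt-GR and 21159, 19874 and 19376 in S134A-GR libraries, and the edited line was lower (log2 fold change -0.17 ± 0.04, SE, adjusted p = 0.00129). CCNB2 and CDK1, the partner kinase of these cyclins, were not called, with log2 fold changes of 0.04 and 0.04 under vehicle and -0.0017 and 0.08 under TGFβ1.

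Among transcription and chromatin regulators, E2F1 was at 6817, 6791 and 7384 in wt-GR and 8244, 7708 and 8319.9 in S134A-GR vehicle libraries, and at 5780.1, 5572 and 5942 in wt-GR and 6573, 6618 and 7746 in S134A-GR libraries under TGFβ1. It was higher in the edited line by 0.21 ± 0.06 and 0.27 ± 0.06 (SE, adjusted p = 0.00888 and 0.00165). E2F2 and FOXM1 were not called between the lines, with intervals of -0.15 to 0.30 and -0.04 to 0.13 under vehicle. UHRF1, which couples DNA methylation to replication, was at 13343, 11588 and 12406 in wt-GR and 10884, 11180.2 and 10925 in S134A-GR vehicle libraries, and at 11485, 11209.9 and 11978 in wt-GR and 10244, 9629 and 11303 in S134A-GR libraries under TGFβ1 (-0.18 ± 0.06 and -0.16 ± 0.06, adjusted p = 0.0192 and 0.0368). The lines were apart under vehicle and overlapped under TGFβ1. The UHRF1 calls were lost without wt-GR vehicle replicate 1 or S134A-GR vehicle replicate 1 or 3 (-0.17 to -0.12, adjusted p = 0.0518 to 0.0876) and, under TGFβ1, without replicate 1 or 3 of wt-GR or 1 or 2 of S134A-GR (-0.16 to -0.10, adjusted p = 0.0716 to 0.177).

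Mitotic kinases and spindle genes were called in both directions. BUB1, a spindle checkpoint kinase, was lower in the edited line: its libraries were at 15616, 15251 and 14788 in wt-GR and 12878, 13226 and 12822 in S134A-GR cells under vehicle, and 14321, 15129 and 14992 in wt-GR and 13901, 12774 and 12545 in S134A-GR libraries under TGFβ1 (-0.23 ± 0.04 and -0.18 ± 0.04, adjusted p = 0.000285 and 0.00203). AURKB, the kinase of the chromosomal passenger complex, was higher, at 8839, 9093 and 9762 in wt-GR and 10396, 10174 and 10196 in S134A-GR libraries under vehicle and 9177, 8916 and 9432 in wt-GR and 9990.0, 10322 and 10744 in S134A-GR libraries under TGFβ1 (0.15 ± 0.04 and 0.17 ± 0.04, adjusted p = 0.00657 and 0.00302). BIRC5 (survivin), a partner of AURKB in that complex, was at 13962, 14351 and 15035 in wt-GR and 15879, 15746 and 15752 in S134A-GR libraries under vehicle (0.13 ± 0.04, adjusted p = 0.00796) and at 14741, 14742 and 15052 in wt-GR and 15888, 15577 and 14744 in S134A-GR libraries under TGFβ1 (0.05, adjusted p = 0.254). The groups were apart for AURKB under both treatments and for BIRC5 under vehicle, and overlapped for BIRC5 under TGFβ1. PLK1, the polo-like kinase, was at 17304, 16693 and 17693 in wt-GR and 18069.8, 16959 and 16739.6 in S134A-GR libraries under vehicle (0.0018, adjusted p = 0.977) and at 18051, 17462 and 17339 in wt-GR and 17148, 15791 and 15720.3 in S134A-GR libraries under TGFβ1 (-0.12 ± 0.04, adjusted p = 0.0285). The latter call was lost without wt-GR TGFβ1 replicate 1 or 2 or S134A-GR TGFβ1 replicate 2 or 3 (-0.13 to -0.10, adjusted p = 0.0512 to 0.107).

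TPX2, a spindle assembly factor, was at 50953, 48578 and 47379 in wt-GR and 44931, 45930.1 and 46012 in S134A-GR vehicle libraries (-0.10 ± 0.04, adjusted p = 0.0259), and at 48892, 50191 and 47905 in wt-GR and 47918, 45623 and 45728 in S134A-GR libraries under TGFβ1 (-0.08, adjusted p = 0.0828). The TPX2 call under vehicle was lost without replicate 1 of either line (-0.09 to -0.07, adjusted p = 0.0899 to 0.109), and TPX2 under TGFβ1 was called without S134A-GR TGFβ1 replicate 1 (-0.10, adjusted p = 0.0411), by edgeR (0.0412) and with TMM scaling (0.0389). AURKA, BUB1B, CDC20, UBE2C, CENPE, CENPF, KIF11, KIF20A and TOP2A were called in neither comparison between the lines. CDC20 and UBE2C, which direct ubiquitination at anaphase and were among the most abundant members per kilobase (14054 and 32288 normalized counts in wt-GR vehicle cells), had intervals of -0.07 to 0.07 and -0.06 to 0.13 under vehicle. KIF11, the kinesin that separates spindle poles, just missed the threshold under vehicle (-0.15, adjusted p = 0.0506), and was called without wt-GR vehicle replicate 3, S134A-GR vehicle replicate 2 or S134A-GR TGFβ1 replicate 1 or 2 (-0.21 to -0.15, adjusted p = 0.00622 to 0.0488). KIF11 was also called by edgeR (adjusted p = 0.0398), by DESeq2 (0.029), with edgeR's filter on low counts (0.0473) and with TMM scaling (0.0414). Calls also appeared for KIF20A under vehicle without wt-GR vehicle replicate 1 (0.10, adjusted p = 0.0451) and for UBE2C under TGFβ1 without wt-GR TGFβ1 replicate 3 (-0.12, adjusted p = 0.0422).

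**Figure D2:**
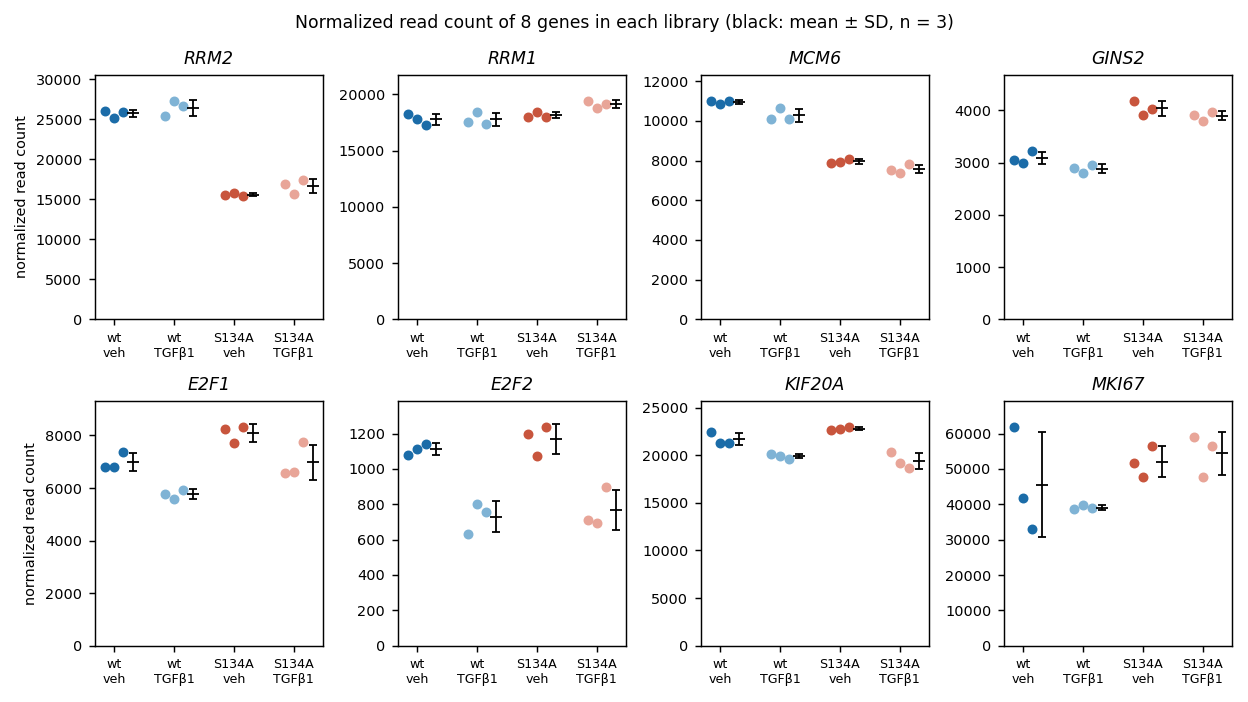
Normalized read count of 8 genes in each library (points, replicates 1 to 3 from left to right) with mean ± SD in black (n = 3). RRM2 and MCM6 are lower and GINS2 higher in every S134A-GR library, RRM1 differs little, E2F2 and KIF20A are lower with TGFβ1 in both lines, and the wt-GR vehicle libraries of MKI67 spread from 33134 to 61862.

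MKI67, which encodes the proliferation marker Ki-67, had the largest SE of the 41 genes. The wt-GR vehicle libraries were at 61862, 41800.2 and 33134 normalized counts, and the S134A-GR vehicle libraries, at 51742, 47829 and 56633, lay within that range (0.24 ± 0.16, adjusted p = 0.232). Under TGFβ1 the values were 38569, 39791 and 38846 in wt-GR and 59139, 47596 and 56564 in S134A-GR libraries, with no overlap and a log2 fold change of 0.47 ± 0.16 (SE, adjusted p = 0.023). That call was lost without wt-GR TGFβ1 replicate 1 or 3 or S134A-GR TGFβ1 replicate 1 or 3 (0.41 to 0.47, adjusted p = 0.0574 to 0.0737). Under vehicle the difference was 0.48 (adjusted p = 0.00102) without wt-GR vehicle replicate 1 and 0.03 (adjusted p = 0.863) without wt-GR vehicle replicate 3. TOP2A, the topoisomerase that also marks dividing cells, was at 70659, 65638 and 58265 in wt-GR and 63772, 64167 and 63629 in S134A-GR libraries under vehicle, and its log2 fold changes were -0.02 and 0.06.

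The spread of MKI67 stood beside a trend with transcript length in the same libraries. Its canonical transcript has 12716 bases, the longest of the 41, and the next were CENPF with 10290 and CENPE with 8541. Over 11586 genes with a mean of at least 100 normalized counts, the deviation of a library from its group mean had a Spearman correlation with transcript length of 0.52 in wt-GR vehicle replicate 1 and -0.61 in replicate 3, and lay between -0.37 and 0.38 in the other 10 libraries. In genes of 8000 bases or more the median deviation was 0.14 in replicate 1 and -0.15 in replicate 3, and in genes under 1500 bases it was -0.05 and 0.08. CENPF had 35928, 27825 and 23327 and CENPE 9116, 8007 and 7224 normalized counts in the wt-GR vehicle libraries, in the same order as MKI67. With each library's trend against length removed, an alternative chosen after seeing the data, MKI67 was higher in S134A-GR cells by 0.33 under vehicle (adjusted p = 0.0091) and 0.42 under TGFβ1 (adjusted p = 0.0016). The same alternative ended 4 calls between the lines: UHRF1 under vehicle (-0.13, adjusted p = 0.0612) and TGFβ1 (-0.12, adjusted p = 0.0977), MCM4 under TGFβ1 (-0.07, adjusted p = 0.124) and TPX2 under vehicle (-0.07, adjusted p = 0.0772). It added calls for CCNB1 (-0.09, adjusted p = 0.0414) and MCM2 (0.10, adjusted p = 0.013) under vehicle. Under TGFβ1 it added TK1 (-0.11, adjusted p = 0.00995), UBE2C (-0.12, adjusted p = 0.0132), FOXM1 (0.10, adjusted p = 0.0331) and BUB1B (0.08, adjusted p = 0.0379). The part of length in these values was not tested further.

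**Figure D3:**
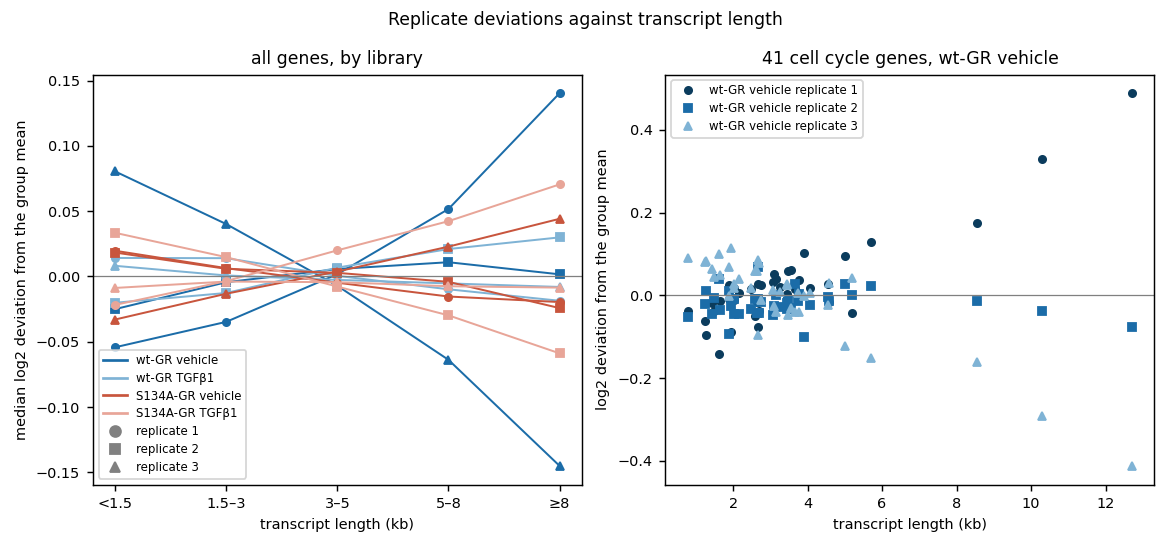
Left, median log2 deviation of each library from its group mean in bins of transcript length over 11586 genes. Right, the same deviation for the 41 genes in the 3 wt-GR vehicle libraries, where replicate 1 lies above and replicate 3 below the mean for the longest transcripts.

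Genes next to the members on the chromosome were set beside them, as a description with no test. For each gene the median log2 fold change of up to 10 tested genes on each side was taken (positions from GENCODE v44, GRCh38). RRM2, on chromosome 2, lay among 20 neighbours over 2.26 Mb with medians of -0.66 under vehicle and -0.56 under TGFβ1, and 15 of the 20 were lower in S134A-GR cells under vehicle and 0 higher. Around MCM6, also on chromosome 2, the medians were -0.38 and -0.29, with 12 of 20 neighbours lower and 2 higher under vehicle. For GINS2, on chromosome 16, they were 0.28 and 0.29, and 13 neighbours were higher and 0 lower. MCM10 on chromosome 10 lay among neighbours with medians of 0.35 and 0.32, PCNA on chromosome 20 among neighbours with -0.20 and -0.26, and MKI67 on chromosome 10 among neighbours with 0.15 and 0.27. Others stood apart from their surroundings: BUB1, on chromosome 2, had neighbours with medians of 0.06 and 0.05, and CCNE1, on chromosome 19, had -0.05 and -0.01. Under vehicle TK1, CCNE2 and TPX2 were lower (-0.11, -0.29 and -0.10) among neighbours with medians of 0.20, 0.14 and 0.08. The genes named here are examples. Over the 41 genes, a gene's own difference and its neighbours' median had a Pearson r of 0.67 under vehicle and 0.71 under TGFβ1 (Spearman rho 0.54 and 0.59), and r was 0.47 and 0.60 without RRM2 and MCM6. Over 16577 tested genes with a position the Pearson r was 0.25 and 0.24 and the Spearman rho 0.38 and 0.36. Those include genes at far lower counts than any member, and genes matched for level were not compared. Genes are not independent replicates, the points share the same libraries, and a cause was not tested.

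**Figure D4:**
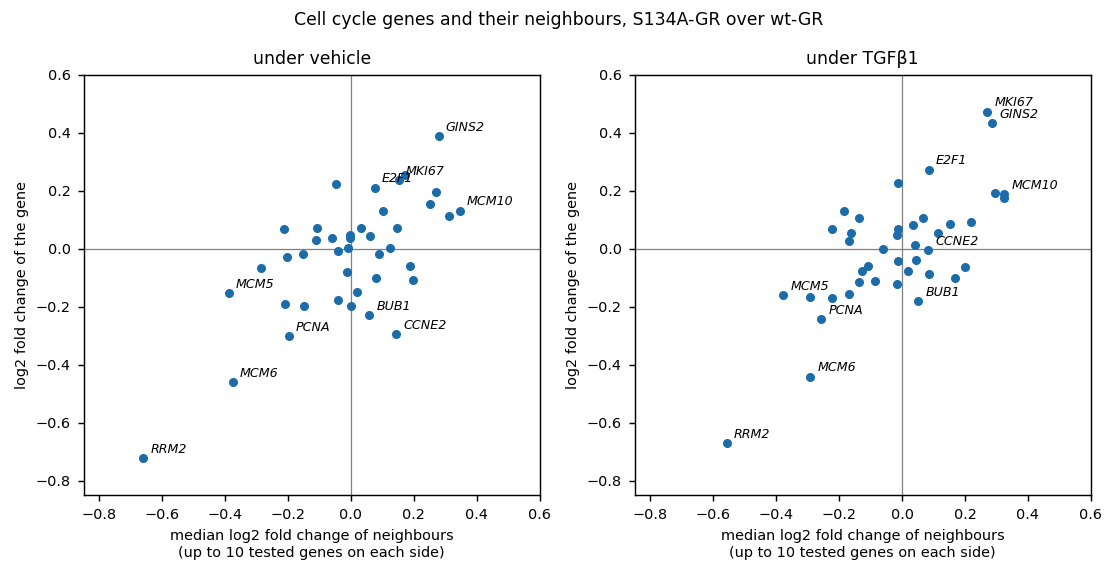
Log2 fold change of each of the 41 genes between S134A-GR and wt-GR cells (vertical axis) against the median of its chromosomal neighbours (horizontal axis), under vehicle (left) and TGFβ1 (right). RRM2 and MCM6 lie at the lower left with their neighbours, GINS2 at the upper right, and BUB1 and CCNE2 below neighbours that lie near or above 0.

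The next comparison asked what TGFβ1 did within each line. In wt-GR cells 7 of the 41 genes were lower after 6 h of TGFβ1 and 0 were higher, that is 17.1% and 0%, where 9.82% of all genes tested were lower and 11.2% higher. In S134A-GR cells 6 genes (14.6%) were lower and 0 higher, against 8.69% and 10.0% of all genes. At an unadjusted p under 0.05, limma had 2 members higher in wt-GR and 3 in S134A-GR cells. By adjusted p, edgeR's quasi-likelihood test had 0 in either line and DESeq2 had 1 in each, CCNE1. Of all 18579 genes, edgeR had 2136 higher in wt-GR and 1818 in S134A-GR cells, and DESeq2 had 2288 and 2209. The wt-GR and S134A-GR responses use different libraries, and CDC6, MCM2, E2F1, E2F2 and KIF20A were lower in both (5 genes). The share of all genes lower in both lines is not given here. The median log2 fold change was -0.08 in wt-GR and -0.03 in S134A-GR cells, against -0.0046 and -0.0097 over all genes, and 30 and 26 of the 41 values were below 0. The count of 7 in wt-GR cells was 3 without wt-GR TGFβ1 replicate 1 and 4 without wt-GR TGFβ1 replicate 3, and 11 with the length trend removed, which added GINS2, MCM3, MCM6 and FOXM1 (-0.12 to -0.09, adjusted p = 0.032 to 0.0466). The count over all genes moved too. It was 1824 in the main fit, 1357 and 1377 without those replicates and 2092 with the length trend removed. The wt-GR median was -0.04 without wt-GR vehicle replicate 1 and -0.05 without wt-GR TGFβ1 replicate 1, and the S134A-GR median was -0.06 without S134A-GR TGFβ1 replicate 1 and -0.01 without S134A-GR TGFβ1 replicate 2. Of the 7 and 6 genes, 6 and 5 belong to the 21 G1/S genes (28.6% and 23.8% of them) and 1 and 1 to the 20 G2/M genes (5% and 5%). The shares over all genes were 9.82% and 8.69%, and the contrast between the phases was not tested.

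**Figure D5:**
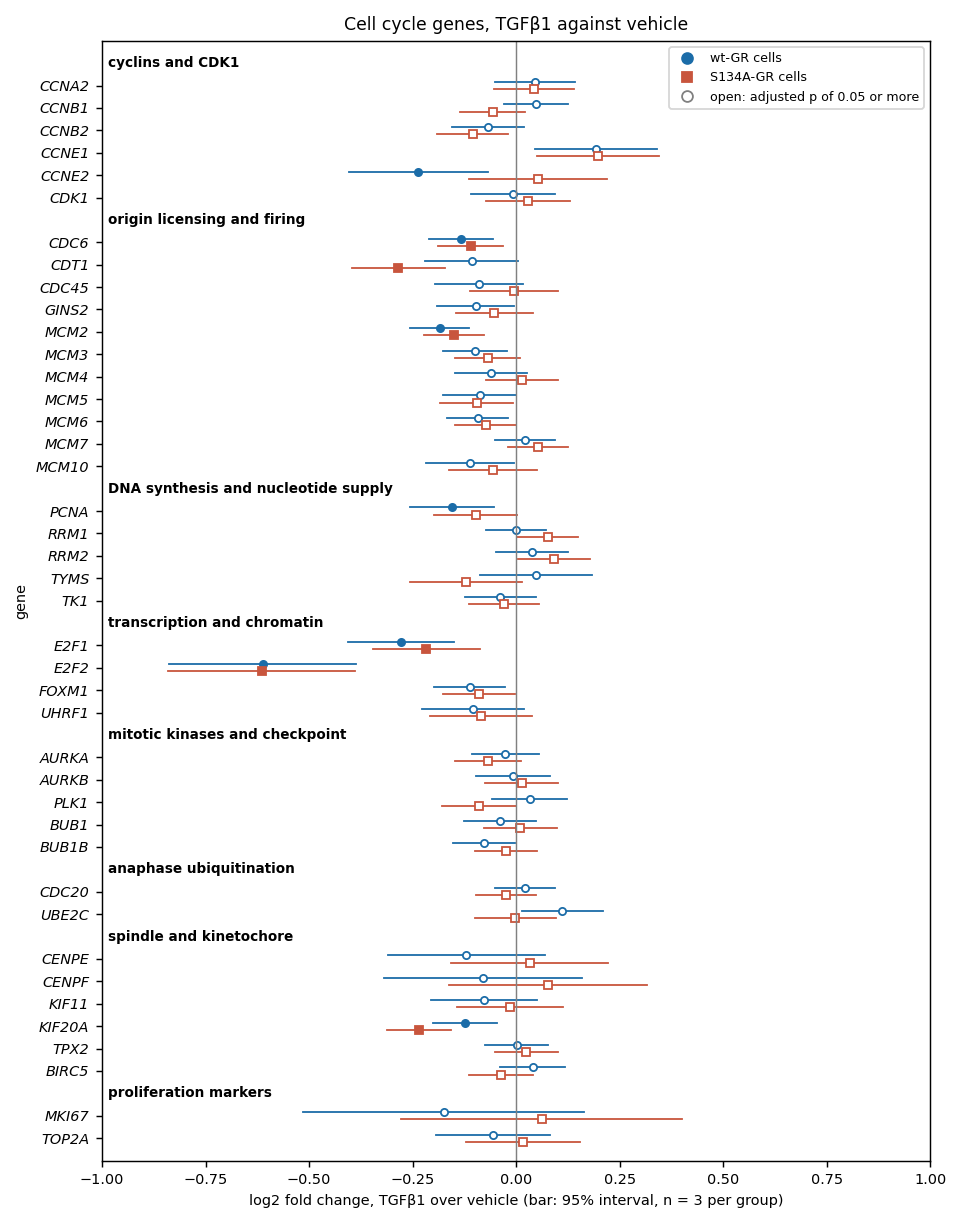
Log2 fold change of each of the 41 genes with TGFβ1 against vehicle, in wt-GR cells (blue circles) and S134A-GR cells (red squares). Bars are 95% intervals (n = 3 per group) and open symbols did not pass the threshold. E2F2 lies at -0.61 in both lines, and no filled symbol lies above 0.

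E2F2 fell most. It had 1079, 1113 and 1144 normalized counts in wt-GR vehicle libraries and 633, 802 and 756 with TGFβ1. In S134A-GR cells it had 1199, 1075 and 1237 with vehicle and 712, 692 and 899.9 with TGFβ1. All TGFβ1 libraries of a line lay below its vehicle libraries, and the log2 fold changes were -0.61 ± 0.10 and -0.61 ± 0.10 (SE, adjusted p = 0.000742 and 0.000824). E2F1, at the values given above, fell by the smaller log2 amounts of 0.28 in wt-GR and 0.22 in S134A-GR cells (adjusted p = 0.00389 and 0.0205). The wt-GR libraries did not overlap, whereas in S134A-GR cells the highest TGFβ1 library lay above the lowest vehicle library. The E2F1 call in S134A-GR cells was lost without S134A-GR vehicle replicate 1 or 3 or S134A-GR TGFβ1 replicate 1 or 2 (-0.20 to -0.18, adjusted p = 0.0754 to 0.0844), and with only the groups compared in the fit (adjusted p = 0.105). FOXM1 had log2 fold changes of -0.11 and -0.09 (adjusted p = 0.063 and 0.147), and was called in wt-GR cells without wt-GR vehicle replicate 3 (-0.13, adjusted p = 0.0481) and by DESeq2 (0.0478). FOXM1 was also called in wt-GR cells with the replicate number as a block (adjusted p = 0.03).

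Of the genes of the helicase and its loading, MCM2, a subunit, went from 17474, 17052 and 17776 with vehicle to 15108, 15099 and 15803 with TGFβ1 in wt-GR libraries and from 18207, 18406 and 18389 to 16343, 16078 and 17144 in S134A-GR libraries, with no overlap in either line. The log2 fold changes were -0.18 ± 0.03 and -0.15 ± 0.03 (SE, adjusted p = 0.00117 and 0.00577). CDT1 was at 4799, 5028 and 5374 with vehicle and 4617, 4604 and 4874 with TGFβ1 in wt-GR cells (-0.11 ± 0.05, adjusted p = 0.175) and at 5434, 5682 and 5314 with vehicle and 4293, 4393 and 4807 with TGFβ1 in S134A-GR cells (-0.29 ± 0.05, adjusted p = 0.00139). CDC6 was lower in both lines, with log2 fold changes of -0.13 and -0.11 (adjusted p = 0.0177 and 0.0499). The CDC6 call in wt-GR cells was lost without wt-GR TGFβ1 replicate 1 or 3 (adjusted p = 0.06 to 0.0726), and the one in S134A-GR cells without any of 9 libraries (-0.12 to -0.09, adjusted p = 0.0507 to 0.185), namely all but wt-GR vehicle replicates 1 and 3 and S134A-GR TGFβ1 replicate 3. The latter was also lost by edgeR, with a pseudocount of 0.5, with no filter on low counts beyond 1 read and with TMM scaling. It was lost as well with the replicate number as a block and with only the groups compared in the fit (adjusted p = 0.050144 to 0.0912 over these fits). MCM3 to MCM7 and MCM10 were not called in either line, with values from -0.11 (MCM10) to 0.02 (MCM7) in wt-GR cells. In wt-GR cells MCM3 was called without S134A-GR TGFβ1 replicate 3 (-0.10, adjusted p = 0.0422), by DESeq2 (0.0496) and with the replicate number as a block (0.0452). MCM5 was called there without wt-GR TGFβ1 replicate 3 (-0.14, adjusted p = 0.0186) and MCM6 without wt-GR TGFβ1 replicate 2 (-0.12, adjusted p = 0.0378).

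PCNA fell from 8942 ± 553 to 8021 ± 205 in wt-GR cells (-0.16 ± 0.05, adjusted p = 0.0299) and was at 7251 ± 212 and 6777 ± 273 in S134A-GR cells (-0.10 ± 0.05, adjusted p = 0.178). The wt-GR call was lost without wt-GR vehicle replicate 2 or 3 or wt-GR TGFβ1 replicate 1 or 3 (-0.16 to -0.11, adjusted p = 0.0687 to 0.114), and with only the groups compared in the fit (adjusted p = 0.0819). CCNE2 had log2 fold changes of -0.24 ± 0.08 in wt-GR cells (adjusted p = 0.0454) and 0.05 ± 0.08 in S134A-GR cells (adjusted p = 0.721). The CCNE2 call was lost without any of 8 libraries (-0.25 to -0.16, adjusted p = 0.050022 to 0.203), namely all but wt-GR vehicle replicate 3, wt-GR TGFβ1 replicate 2 and S134A-GR TGFβ1 replicates 1 and 2. It was also lost by edgeR (adjusted p = 0.0545), with the replicate number as a block (0.0701) and with only the groups compared in the fit (0.105). CCNE1 had the highest values of the members, 0.19 ± 0.07 in wt-GR and 0.20 ± 0.07 in S134A-GR cells (adjusted p = 0.0622 and 0.0616), with TGFβ1 libraries above vehicle libraries in both lines. It was called in wt-GR cells without wt-GR vehicle replicate 3 or S134A-GR TGFβ1 replicate 3 (adjusted p = 0.0186 to 0.043), and in S134A-GR cells without wt-GR vehicle replicate 1 or 3 (adjusted p = 0.039 to 0.0487). DESeq2 called it in both lines (adjusted p = 0.0474 and 0.0251), and with the length trend removed it was called in S134A-GR cells (adjusted p = 0.0312). RRM2 and TYMS in S134A-GR cells had values of 0.09 and -0.12, which were called without S134A-GR TGFβ1 replicate 2 (0.14, adjusted p = 0.029) and replicate 3 (-0.19, adjusted p = 0.0365).

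KIF20A, the kinesin of the central spindle, was the G2/M gene that fell in both lines. It went from 22476, 21317 and 21309.6 with vehicle to 20116, 19973 and 19642 with TGFβ1 in wt-GR cells and from 22702, 22759.8 and 22965 to 20343, 19193 and 18628 in S134A-GR cells, with no overlap. The log2 fold changes were -0.12 ± 0.04 and -0.24 ± 0.04 (SE, adjusted p = 0.0244 and 0.00032), and the wt-GR call was lost without wt-GR vehicle replicate 1 or any 1 of the wt-GR TGFβ1 libraries (-0.13 to -0.10, adjusted p = 0.0511 to 0.0952). The other 19 G2/M genes were not called. UBE2C was at 0.11 in wt-GR cells and was called without wt-GR vehicle replicate 3 or wt-GR TGFβ1 replicate 3 (0.16, adjusted p = 0.0168 to 0.0318), and MKI67, at -0.17, was called without wt-GR vehicle replicate 3 (-0.38, adjusted p = 0.0437). In S134A-GR cells CCNB2 (-0.10) and PLK1 (-0.09) were called without S134A-GR TGFβ1 replicate 1 (-0.14 and -0.13, adjusted p = 0.0323 and 0.0463).

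Whether the response to TGFβ1 differed between the lines was tested as an interaction, the response in S134A-GR minus that in wt-GR cells. For the 41 genes limma called 0 higher and 0 lower, where 0.167% and 0.248% of all genes were called. At an unadjusted p under 0.05 limma had 3 members, and 1728 of all 18579 genes. The smallest adjusted p of a member in the limma fit was 0.431. edgeR's quasi-likelihood test and DESeq2 also called 0 members. Of all genes, edgeR called 27 higher and 51 lower, and DESeq2 called 98 and 110. The values nearest to a difference were those of CCNE2 (0.29 ± 0.11, 95% interval 0.05 to 0.53), CDT1 (-0.18 ± 0.07, -0.34 to -0.02) and KIF20A (-0.11 ± 0.05, -0.22 to -0.0024). For E2F2 the interval was -0.32 to 0.32 and for E2F1 -0.12 to 0.24, so that differences within these bounds could not be told from 0. CDT1, CCNE2 and PCNA were called in 1 line and not in the other, and the interaction for PCNA was 0.06 (adjusted p = 0.818).

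A further list of 90 cell cycle genes was compiled beside the 41, with earlier results of these data known, so it is not an independent set. For the edited line under vehicle it had 27 genes higher and 31 lower (30% and 34.4%, against 25.0% and 26.5% of all genes). Under TGFβ1 it had 26 and 26 (28.9% each, against 23.1% and 25.7%). TGFβ1 raised 4 and lowered 21 of them in wt-GR cells (4.44% and 23.3%, against 11.2% and 9.82%). In S134A-GR cells it raised 5 and lowered 16 (5.56% and 17.8%, against 10.0% and 8.69%), and the median log2 fold change was -0.08 and -0.04. The 21 fell to 10 without wt-GR TGFβ1 replicate 1, and the 4 to 1 without wt-GR TGFβ1 replicate 2 and 2 without wt-GR vehicle replicate 1 or 2 or wt-GR TGFβ1 replicate 1. Over all genes, the count lower in wt-GR cells went from 1824 to 1357 without wt-GR TGFβ1 replicate 1. The count higher there went from 2086 to between 1514 and 1701 without 1 of these libraries. The 16 fell to 6, 8 and 8 without S134A-GR vehicle replicates 1, 2 and 3 and to 5 without S134A-GR TGFβ1 replicate 2, and the 5 to 3 without S134A-GR vehicle replicate 3. In the same fits the count of all genes lower in S134A-GR cells went from 1615 to 1148, 1182, 1165 and 1355. The count higher went from 1860 to 1392 without S134A-GR vehicle replicate 3. The interaction gave 0 by limma and by edgeR, 7 at an unadjusted p under 0.05, and 1 by DESeq2. Of all 18579 genes, limma had 1728 at that unadjusted p, and DESeq2 called 98 higher and 110 lower. HMMR, a spindle-associated hyaluronan receptor, differed most between the lines: from wt-GR to S134A-GR cells it went from 1059 ± 10.3 to 390.0 ± 60.7 under vehicle and from 938 ± 64.1 to 417 ± 19.8 under TGFβ1 (log2 fold changes -1.45 and -1.16). Its neighbours on chromosome 5 had a median of -0.16 under either treatment. CHEK1, the replication checkpoint kinase, went from 6178 ± 128 to 3745 ± 90 under vehicle (-0.72), and its neighbours on chromosome 11 had a median of -0.49. The medians were -0.45 for ORC4 and -0.62 for POLD3 under vehicle. The windows of ORC4 and MCM6 on chromosome 2 overlap. On this list neighbours were looked up only for HMMR, CHEK1, ORC4 and POLD3, all lower in S134A-GR cells, and not for the genes that were higher. ORC4, POLD3 and TTK were the next lowest under vehicle (-0.64, -0.52 and -0.53), and CKS2, GINS3, SPC24, ZWINT and ORC6 the highest (0.57, 0.57, 0.54, 0.51 and 0.50). GINS3 encodes a partner of GINS2 in the same complex. Under TGFβ1 POLE and E2F7 were also among the 5 highest (0.55 and 0.47).

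With TGFβ1 the repressor gene E2F7 rose from 9349 ± 749.9 to 11388 ± 149.6 in wt-GR and from 11588 ± 236 to 15763 ± 458 in S134A-GR cells (0.29 and 0.44, adjusted p = 0.000602 and 1.39e-05). E2F3 (0.22) and WEE1 (0.18), the kinase that restrains CDK1, also rose in S134A-GR cells. CHAF1B, RBL1, ECT2 and POLE2 were lowest in wt-GR cells (-0.28, -0.26, -0.24 and -0.24), and GINS4, ORC1 and CDC25B in S134A-GR cells (-0.32, -0.24 and -0.21). These calls held in every fit that left out 1 library. In wt-GR cells ORC2 (0.15), WEE1 (0.13), CKS1B (0.13) and CDC25A (-0.23) were also called. The calls of WEE1, CKS1B and CDC25A were lost without wt-GR vehicle replicate 1 or 2 or wt-GR TGFβ1 replicate 1 or 2, and that of CDC25A also without wt-GR TGFβ1 replicate 3 (adjusted p = 0.054 to 0.111). ORC2 lost its call without wt-GR vehicle replicate 3 or wt-GR TGFβ1 replicate 2 (adjusted p = 0.0599 to 0.0635). In S134A-GR cells BUB3 (0.14) lost its call without S134A-GR vehicle replicate 3 (0.12, adjusted p = 0.0559). E2F8 (-0.22) lost it without S134A-GR vehicle replicate 1 or S134A-GR TGFβ1 replicate 2 (adjusted p = 0.0545 to 0.075), and POLA2 (-0.19) without S134A-GR vehicle replicate 2 or 3 or S134A-GR TGFβ1 replicate 2 (adjusted p = 0.0544 to 0.121). ORC2 (0.13) lost it without any of 10 libraries, namely all but wt-GR vehicle replicates 1 and 3 (0.12 to 0.14, adjusted p = 0.0511 to 0.134). With only the groups compared in the fit, ORC2, WEE1, CKS1B and POLE2 in wt-GR cells and POLA2 in S134A-GR cells lost their calls (adjusted p = 0.0508 to 0.0945), as did CKS1B (0.162) in wt-GR and BUB3 (0.149) in S134A-GR cells with the length trend removed.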

How the data were processed

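RNA of the 12 libraries was sequenced as 75-base paired-end reads. Per the study's methods, the authors used Trimmomatic for trimming, HISAT2 for alignment to hg38 and featureCounts for counting, then divided the counts by DESeq2 (1.22.2) size factors. The deposited normalized counts are such a signal, per gene symbol. The annotation and the use of strand are not given in the sources used here. Each value came out as whole reads (100% of values, within 0.001), so depth was recovered. Because the values are not counts, limma (3.58.1, R 4.3.3) with an intensity trend was fitted to log2(value + 1) over all 12 libraries with 4 group means, for symbols with at least 10 reads in all. The 5 contrasts were: S134A-GR against wt-GR under each treatment, the TGFβ1 response of each line, and how these responses differ. edgeR's quasi-likelihood test (4.0.16) and DESeq2 (1.42.0) on the recovered reads, other pseudocounts, filters, scalings and sample choices were alternatives, and the scripts were tested on simulated data. All values of a library were given for, per role, up to 4 called members with the largest change; of the other cell cycle genes, the 5 largest called changes each way were named. MCM2 was also given with all its values, outside that rule. TOP2A, CENPF and CENPE were named for their transcript length or spread after their values were seen. The members and lists were chosen with earlier results of these data known.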

Additional observations from a re-analysis of the deposited data

How the results depend on the processing

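Of 4469 values of the 41 genes under 22 alternatives, 4330 kept their direction and their side of the threshold, 84 lost a call, 55 gained one and 0 reversed, and of 858 values of the other named genes 818 kept both and 40 lost a call. Where calls also needed an absolute log2 value of 1 or more, 0 members were higher and 0 lower in the comparisons between lines and within each line. Of all 18579 genes, 941 were then higher and 826 lower between lines under vehicle, and 720 and 851 under TGFβ1. With TGFβ1, 219 were higher and 206 lower in wt-GR cells, and 142 and 167 in S134A-GR cells. DESeq2 called 1 member higher with TGFβ1 in each line and 1 other cell cycle gene lower for the interaction. Of all 18579 genes it called 2288 higher with TGFβ1 in wt-GR and 2209 in S134A-GR cells, and 110 lower for the interaction. With the length trend removed, an alternative chosen after seeing the data, 11 members were lower with TGFβ1 in wt-GR cells and 1 was higher in S134A-GR cells. Of all 18579 genes, 2092 were then lower in wt-GR and 2093 higher in S134A-GR cells. With only the groups compared in the fit, 1 other cell cycle gene was higher and 13 lower with TGFβ1 in wt-GR cells. Of all 18579 genes, 1549 were higher and 1395 lower in that fit. The cause of these shifts was not tested. Leaving out 1 library at a time gave medians from -0.0315 to 0.0189 between lines under TGFβ1, from -0.0774 to -0.0386 for TGFβ1 in wt-GR cells, from -0.056 to -0.0139 in S134A-GR cells and from 0.00737 to 0.0522 for the interaction. It gave 0 to 2 members higher and 3 to 8 lower with TGFβ1 in wt-GR cells, and 0 to 1 higher and 4 to 7 lower in S134A-GR cells. Of the other cell cycle genes it gave 1 to 4 higher and 10 to 22 lower in wt-GR cells, and 3 to 6 higher and 5 to 19 lower in S134A-GR cells. Over all genes in these fits (18444 to 18498), 1514 to 2356 were higher and 1292 to 2023 lower in wt-GR cells. In S134A-GR cells 1350 to 2100 were higher and 1148 to 1740 lower. Deviations of same-numbered libraries had a mean correlation of -0.0032 over 12506 genes (from -0.138 to 0.162). The labels do not say whether the replicate numbers pair the samples, and a correlation near 0 cannot settle it. With the replicate number as a block, 8 members were higher and 12 lower between lines under vehicle, 9 and 10 under TGFβ1, 0 and 8 with TGFβ1 in wt-GR cells and 0 and 5 in S134A-GR cells. Of all 18579 genes, 4572 were then higher and 4853 lower between lines under vehicle, and 4214 and 4694 under TGFβ1. With TGFβ1, 1947 were higher and 1731 lower in wt-GR cells, and 1716 and 1482 in S134A-GR cells. With 3 libraries a group, small differences lie within the intervals given.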
